A study of Danio rerio with 12 samples.

Results

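The comparison described here set ovaries against testes of juvenile zebrafish at 30 days post fertilization (dpf). It took 3 putative ovaries and 3 putative testes at 30 dpf, 6 of the 12 gonads of the series, and the other 6 gonads (2 ovaries and 4 testes at 25 dpf) entered the same model so that the spread between gonads was estimated over more samples. The members were chosen by the column names of the count table, which give gonad size, age and a number. The sample labels name ovaries and testes but no sizes. Columns marked big were taken as ovaries because the study describes young ovaries as bigger than young testes. Every fish was of the AB strain and carried the transgene Tg(piwil1-egfp-nos3UTR)ihb327Tg, which marks germ cells with green fluorescent protein, in the ovaries, the testes and both ages alike. Each sample was a single gonad whose cDNA was amplified before sequencing. The labels do not say whether the gonads came from separate clutches or were paired, so p-values measure the spread between these gonads. Because the transgene carries piwil1 and nanos3 sequence, counts of PIWIL1 and NANOS3 may hold transgene reads, and the 2 sources cannot be told apart.

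Zebrafish of laboratory strains have no sex chromosome, and every juvenile first forms an ovary-like gonad with immature oocytes. In future females these oocytes grow, store maternal RNA and lay down an egg coat, while the follicle cells around them make oestrogen. In future males the oocytes are lost, Sertoli cells come to support spermatogonia, and Leydig cells make 11-oxygenated androgens. At 30 dpf this change is under way and gonads of one sex can be at different points along it.

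Levels are given as CPM, the count of a gene per 1000000 counts of its library, after scaling by the trimmed mean of M values (TMM), and in every list of values the gonads are in the order 1, 2 and 3. Fold changes are log2 ratios of ovary over testis, so that a positive value is higher in ovaries. A gene was called when its edgeR quasi-likelihood p, adjusted by the Benjamini-Hochberg method over all 19292 genes tested, was under 0.05. Gene symbols are those of the name table, which uses human-type capitals for some zebrafish genes. Where several genes share a symbol, the Ensembl identifier names the copy. The 6 libraries were of like depth, with 4471588 to 4676396 counts, and 3 counts corresponded to 0.602 to 0.806 CPM. Levels at or under this floor were read as not detectable, and such floors cover counting error only.

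Several libraries stood apart. The library labelled testis 1 went against its label in some genes of male supporting cells. Amh, the anti-Müllerian hormone of Sertoli cells, was at 15.4 CPM there and at 528 and 1038 CPM in testes 2 and 3. The DMRT1 level of testis 1 lay among those of the ovaries, as did its levels of inha (60.8 CPM) and ptgdsb.2 (13.2 CPM). Other genes of these cells followed the label, among them gsdf and WT1, which were higher in testis 1 than in any ovary. Some genes of female supporting cells also went against the label of testis 1. CYP19A1 (30.0 CPM) and the FOXL2 copy ENSDARG00000042180 (62.4 CPM) were higher there than in ovaries 1 and 2. Hsd17b1 (24.4 CPM) was below every ovary. On the main axis of variation over all genes testis 1 stood with the testes. On the first principal component of the 6 gonads (61.9% of the variance) the ovaries were at 116, 103 and 54.5, against -93.4, -78.7 and -101 for the testes. Ovary 3 was the ovary nearest to the testes on that axis. On the second component (13.7%) testis 1 was at 77.2, apart from testes 2 and 3 at -53 and -15.6. The ovaries were at 29.7, 2.21 and -40.4 there. Testis 2 held more counts of oocyte, pancreas, blood and swim bladder genes than the other testes. Of the genes called when a gonad was left out of the fit, the share for which that gonad lay nearer to its own sex was 95.8%, 95.6% and 76.1% for ovaries 1, 2 and 3, against 87.1%, 91.8% and 91.7% for testes 1, 2 and 3. Results that rest on one of these libraries are given with and without it.

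The comparison of 30 dpf ovaries with 30 dpf testes asked which genes differ as the 2 sexes part. Of 19292 genes tested, 6789 were called (35.2%), 3601 higher in ovaries (18.7%) and 3188 lower (16.5%). These shares are the background for the counts of every list that follows, where all gonads are in the fit. The lists were chosen with earlier results of these data known, so their counts describe these gonads and are not independent evidence. Some genes are in several lists, so the counts of different lists overlap. The median log2 fold change was 1.41 among the higher and -1.46 among the lower genes, and -0.11 over all genes tested. Large differences were more often higher in ovaries: 334 called genes had a log2 fold change above 4 and 62 had one below -4. Genes called higher held 43.8% to 54.2% of all CPM in the ovaries, against 19.7% to 20.6% in the testes. They were picked as higher in these same gonads, so the direction of this difference was set by the choice. The ovaries did not overlap the testes for 50.8% of the genes tested, with 25.1% higher in every ovary and 25.7% lower in every ovary. The split of calls depended on scaling. Against 3601 higher and 3188 lower with TMM, upper-quartile factors gave 2971 higher and 4069 lower, and library size alone gave 2492 higher and 4597 lower. The median of all genes was -0.29 with upper-quartile factors and -0.41 by library size, so small differences are not firm in direction. Without testis 1, 5575 of 19128 genes were called (29.1%; 15.7% higher and 13.5% lower). Of the 6789 calls, 5216 were also called without it. The samples are whole gonads, so fewer cells of a type and less RNA per cell cannot be told apart in any result that follows.

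**Figure D1:**
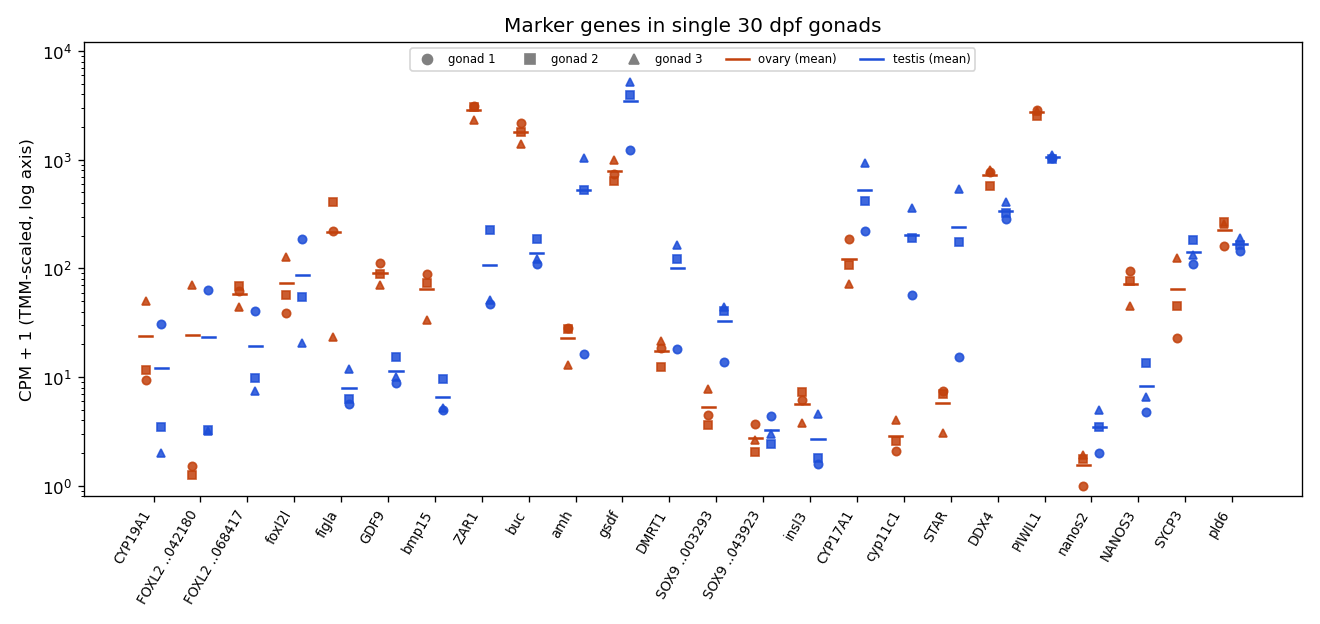
Level of 24 marker genes in single 30 dpf gonads, as CPM + 1 on a log axis. Each symbol is 1 gonad (circle 1, square 2, triangle 3), ovaries at left and testes at right within each gene, and bars are means of 3 gonads; the digits after 2 dots are the end of the Ensembl identifier. ZAR1, buc, GDF9 and figla lie higher in every ovary than in every testis, while for amh, gsdf, DMRT1 and STAR the circle of testis 1 lies below the other testes.

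Most genes that direct early oocyte growth were higher in ovaries. Of 14 oocyte regulators and growth factors tested, 10 were called higher and 1 lower (18.7% and 16.5% of all genes), and the list's median log2 fold change was 2.59 (all genes, -0.11). LHX8, a transcription factor needed for follicles to form in mammals, had 695, 721 and 553 CPM in the ovaries, against 39.2, 57.7 and 45.1 CPM in the testes (log2 fold change 3.79 ± 0.42 SE, adjusted p = 0.00022). GDF9, a growth factor that oocytes send to their follicle cells, had 112, 88 and 69 CPM in the ovaries, against 7.8, 14.4 and 9.05 CPM in the testes (log2 fold change 3.10 ± 0.35 SE, adjusted p = 0.00022). Both genes were more than 4-fold higher in the lowest ovary than in the highest testis. The partner growth factor bmp15 had 87.4, 72.1 and 32.6 CPM in the ovaries, against 4, 8.62 and 4.23 CPM in the testes (log2 fold change 3.50 ± 0.51 SE, adjusted p = 0.00059). Figla, the factor that switches on egg coat genes, was the most uneven of the group, with 218, 412 and 22.2 CPM in the ovaries, against 4.6, 5.34 and 10.9 CPM in the testes (log2 fold change 4.96 ± 0.90 SE, adjusted p = 0.0019). Ovary 3 held far less of it than ovaries 1 and 2, though still more than any testis. Some members did not follow the others. Kitlga, a ligand of the Kit receptor, was lower in ovaries, with 2.68, 5.74 and 4.62 CPM in the ovaries, against 28, 20.3 and 15.7 CPM in the testes (log2 fold change -2.29 ± 0.43 SE, adjusted p = 0.0022). Foxl2l, which in zebrafish acts in germ cells that enter the female path, was not called and was highest in testis 1, with 37.6, 55.6 and 126 CPM in the ovaries, against 185, 53.6 and 19.7 CPM in the testes (log2 fold change -0.23 ± 0.66 SE, adjusted p = 0.81). Its sign turned without testis 1 (0.99, adjusted p = 0.20).

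Maternal factors, the RNAs that oocytes store for the embryo, differed more. Of 28 genes of this list, 26 passed the filter on low counts, 23 were called higher and 0 lower, with a median of 3.79. Buc, which organizes the Balbiani body of the young oocyte, had 2174, 1793 and 1382 CPM in the ovaries, against 108, 185 and 121 CPM in the testes (log2 fold change 3.69 ± 0.45 SE, adjusted p = 0.00029). ZAR1, an RNA-binding protein of the oocyte cytoplasm, had 3145, 3047 and 2324 CPM in the ovaries, against 46, 225 and 49.7 CPM in the testes (log2 fold change 4.73 ± 0.96 SE, adjusted p = 0.0035). In both, testis 2 was the highest testis and ovary 3 the lowest ovary, and the sexes stayed far apart. The embryonic factors nanog and pou5f3 showed the same separation. Nanog had 1060.3, 848 and 441 CPM in the ovaries, against 21.2, 63.2 and 22.1 CPM in the testes (log2 fold change 4.46 ± 0.60 SE, adjusted p = 0.00044). Pou5f3 had 799, 539 and 206 CPM in the ovaries, against 2, 19.7 and 2.41 CPM in the testes (log2 fold change 6.0 ± 1.23 SE, adjusted p = 0.0037). Both are known for opening the zygotic genome after fertilization. Cyclin CCNB1, which drives meiotic maturation, had 2831, 1888 and 1154 CPM in the ovaries, against 86, 166 and 87.7 CPM in the testes (log2 fold change 4.11 ± 0.43 SE, adjusted p = 0.0002), and org, an oogenesis-related gene, had 851, 814 and 583 CPM in the ovaries, against 86.6, 131 and 92.7 CPM in the testes (log2 fold change 2.86 ± 0.27 SE, adjusted p = 0.00017). Not every stored RNA differed. YBX1, which binds maternal RNA but is also made by many somatic cells, had 1753, 1753 and 1604 CPM in the ovaries, against 1808, 2067 and 1926 CPM in the testes (log2 fold change -0.18 ± 0.15 SE, adjusted p = 0.37). ZAR1L, a relative of ZAR1, was at 5.63, 5.74 and 196 CPM in the ovaries, against 4.8, 11.9 and 1.01 CPM in the testes (log2 fold change 3.55 ± 1.66 SE, adjusted p = 0.12), so that ovary 3 alone held a high level. Without testis 1, 21 members were called higher (15.7% of all genes in that fit) and 0 lower.

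Zona pellucida genes encode the egg coat, which zebrafish oocytes make themselves. All 23 genes of this family in the table were taken, 22 passed the filter, 19 were called higher and 0 lower, and the median of 4.83 was the highest of the 34 lists. Many zp genes are near-identical copies, so the split of reads between copies is uncertain and the sum is given as well. How reads that fit several copies were counted is not stated, and the sum may miss them. The summed level was 32308, 29989 and 18714 CPM in the ovaries, against 338, 1847 and 261 CPM in the testes. Ovary 3 held the least of the ovaries and testis 2 the most of the testes. The most abundant member was zpax1, with 6364, 5673 and 3656 CPM in the ovaries, against 149.9, 361 and 112 CPM in the testes (log2 fold change 4.65 ± 0.75 SE, adjusted p = 0.001). Zp2l2 had the smallest adjusted p of the family, with 140.3, 123 and 87.5 CPM in the ovaries, against 5.4, 9.44 and 7.65 CPM in the testes (log2 fold change 3.96 ± 0.38 SE, adjusted p = 0.00017). Zp3e ranged more among the testes, with 5393, 5133 and 3268 CPM in the ovaries, against 13.6, 236 and 6.24 CPM in the testes (log2 fold change 5.75 ± 1.53 SE, adjusted p = 0.014), and testis 2 held the most. The 3 tested members not called were zpax4, zpcx and zp2l1, all below 20 CPM in every gonad. Without testis 1, 16 were called higher and the fitted values of the abundant members changed little (zpax1, 4.46, adjusted p = 0.0063).

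The piRNA pathway silences transposons in germ cells of both sexes and is housed in nuage, granules at the mitochondria. Of 22 members tested, 15 were called higher and 0 lower, with a median of 1.25. PIWIL1, the Piwi protein Ziwi, had 2871, 2500.5 and 2804 CPM in the ovaries, against 1035, 1025 and 1099.5 CPM in the testes (log2 fold change 1.37 ± 0.11 SE, adjusted p = 0.00014), with the limit on transgene reads given above. PIWIL2, which the transgene does not carry, had 789.6, 739.7 and 993 CPM in the ovaries, against 365, 338 and 355 CPM in the testes (log2 fold change 1.25 ± 0.15 SE, adjusted p = 0.00026). The gonads of each sex lay close together for both genes. DDX4 (Vasa), a helicase of all germ cells, had 776, 568 and 806 CPM in the ovaries, against 285, 319 and 407 CPM in the testes (log2 fold change 1.09 ± 0.19 SE, adjusted p = 0.0015).  Exd1, a piRNA cofactor, had 636, 559 and 510.5 CPM in the ovaries, against 97.6, 133 and 132 CPM in the testes (log2 fold change 2.23 ± 0.22 SE, adjusted p = 0.00017), and GPAT2, a mitochondrial acyltransferase of the pathway, had 470.2, 414 and 438 CPM in the ovaries, against 118, 132 and 145 CPM in the testes (log2 fold change 1.74 ± 0.20 SE, adjusted p = 0.00023). Pld6, the mitochondrial phospholipase that the study examined, was not called, with 159.9, 267 and 253 CPM in the ovaries, against 145, 163 and 189.1 CPM in the testes (log2 fold change 0.45 ± 0.22 SE, adjusted p = 0.14), and testis 3 lay above ovary 1; it was called higher without ovary 1 (0.64, adjusted p = 0.042). TDRD1, a Tudor scaffold of nuage, split each sex, with 879, 260.3 and 8.31 CPM in the ovaries, against 362, 2.87 and 3.22 CPM in the testes (log2 fold change 1.64 ± 1.75 SE, adjusted p = 0.49). Without testis 1 it was called higher (6.96, adjusted p = 0.031), and with that library it was not.

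Of 13 genes of germline stem and progenitor cells tested, 7 were called higher and 0 lower, with a median of 0.90. Some of these are stored in oocytes as well, and called members such as DND1 and DDX4 were also counted in the maternal or piRNA lists. NANOS3, a translational repressor that protects germ cells, had 93.3, 74.9 and 43.9 CPM in the ovaries, against 3.8, 12.5 and 5.63 CPM in the testes (log2 fold change 3.27 ± 0.46 SE, adjusted p = 0.00053). ZBTB16 (ENSDARG00000007184), known as Plzf in spermatogonial stem cells of mammals, had 295, 233 and 209 CPM in the ovaries, against 25.2, 34.9 and 32.8 CPM in the testes (log2 fold change 2.99 ± 0.55 SE, adjusted p = 0.0021). Its other copy, zbtb16b, was not called, with 5.36, 5.48 and 3.69 CPM in the ovaries, against 1.6, 8.21 and 6.44 CPM in the testes (log2 fold change -0.16, adjusted p = 0.90). Nanos2, the marker of germline stem cells, was near the floor, with 0, 0.783 and 0.924 CPM in the ovaries, against 1, 2.46 and 4.02 CPM in the testes (log2 fold change -2.06 ± 0.94 SE, adjusted p = 0.11). Gfra1a, GFRA1 (ENSDARG00000102564) and id4 were also lower in every ovary than in every testis and not called (log2 fold changes of -1.33, -1.25 and -1.32). Id4 and GFRA1 were near the floor as well. Nanos1 was highest in testis 1, with 108, 139 and 162 CPM in the ovaries, against 524, 173 and 148 CPM in the testes (log2 fold change -1.05 ± 0.42 SE, adjusted p = 0.074), and was called lower without testis 2 (-1.28, adjusted p = 0.049) or testis 3 (-1.36, adjusted p = 0.031).

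Few meiosis genes differed. Of 30 tested, 4 were called higher and 1 lower (35.2% of all genes were called), and the median of -0.15 was close to that of all genes. The sum over the list was 1321, 1599.6 and 2108 CPM in the ovaries, against 1298, 1741 and 1896 CPM in the testes, and the 2 ranges overlapped. SYCP3, a core protein of the synaptonemal complex, had 21.7, 44.1 and 124 CPM in the ovaries, against 108, 181 and 132 CPM in the testes (log2 fold change -1.15 ± 0.51 SE, adjusted p = 0.098). Its levels in the ovaries spanned a wide range and ovary 3 reached those of the testes. HORMAD1, another axis protein, was also lowest in ovary 1, with 76.2, 173 and 262 CPM in the ovaries, against 201, 279.8 and 329 CPM in the testes (log2 fold change -0.66 ± 0.36 SE, adjusted p = 0.17), and was called lower without ovary 3 (-1.14, adjusted p = 0.03). Spo11, which makes meiotic DNA breaks, was called higher, with 68.9, 53.8 and 69.5 CPM in the ovaries, against 18.6, 28.9 and 38.8 CPM in the testes (log2 fold change 1.15 ± 0.33 SE, adjusted p = 0.019), but lost the call without testis 1 (0.91, adjusted p = 0.065), without ovary 1 (1.09, adjusted p = 0.06) and without ovary 3 (1.06, adjusted p = 0.051). FANCL, a repair gene needed for zebrafish females to form, had 46.7, 41.8 and 78.7 CPM in the ovaries, against 29, 30.4 and 23.7 CPM in the testes (log2 fold change 1.01 ± 0.26 SE, adjusted p = 0.012) and depended on ovary 3 (0.65, adjusted p = 0.051 without it). With a gonad left out, 1 to 3 members were called higher, 1 without testis 1 or without ovary 3, and 2 without ovary 2, testis 2 or testis 3.

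Few sperm flagellum genes differed. Of 28 genes matched, 22 passed the filter, 1 was called higher and 1 lower, with a median of 0.11 that turned to -0.06 with upper-quartile factors and to -0.17 by library size. For all genes the medians with these scalings were -0.11, -0.29 and -0.41. TSSK6, a kinase of late sperm, had no count in any of the 6 gonads. CFAP45, a cilia and flagella protein, was lower in ovaries, with 8.85, 20.1 and 13.9 CPM in the ovaries, against 78.6, 68.4 and 52.7 CPM in the testes (log2 fold change -2.22 ± 0.34 SE, adjusted p = 0.0008). SPATA18, known in other cells for mitochondrial quality control, was higher, with 265, 227 and 76 CPM in the ovaries, against 4.4, 3.9 and 2.21 CPM in the testes (log2 fold change 5.74 ± 0.98 SE, adjusted p = 0.0014).

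**Figure D2:**
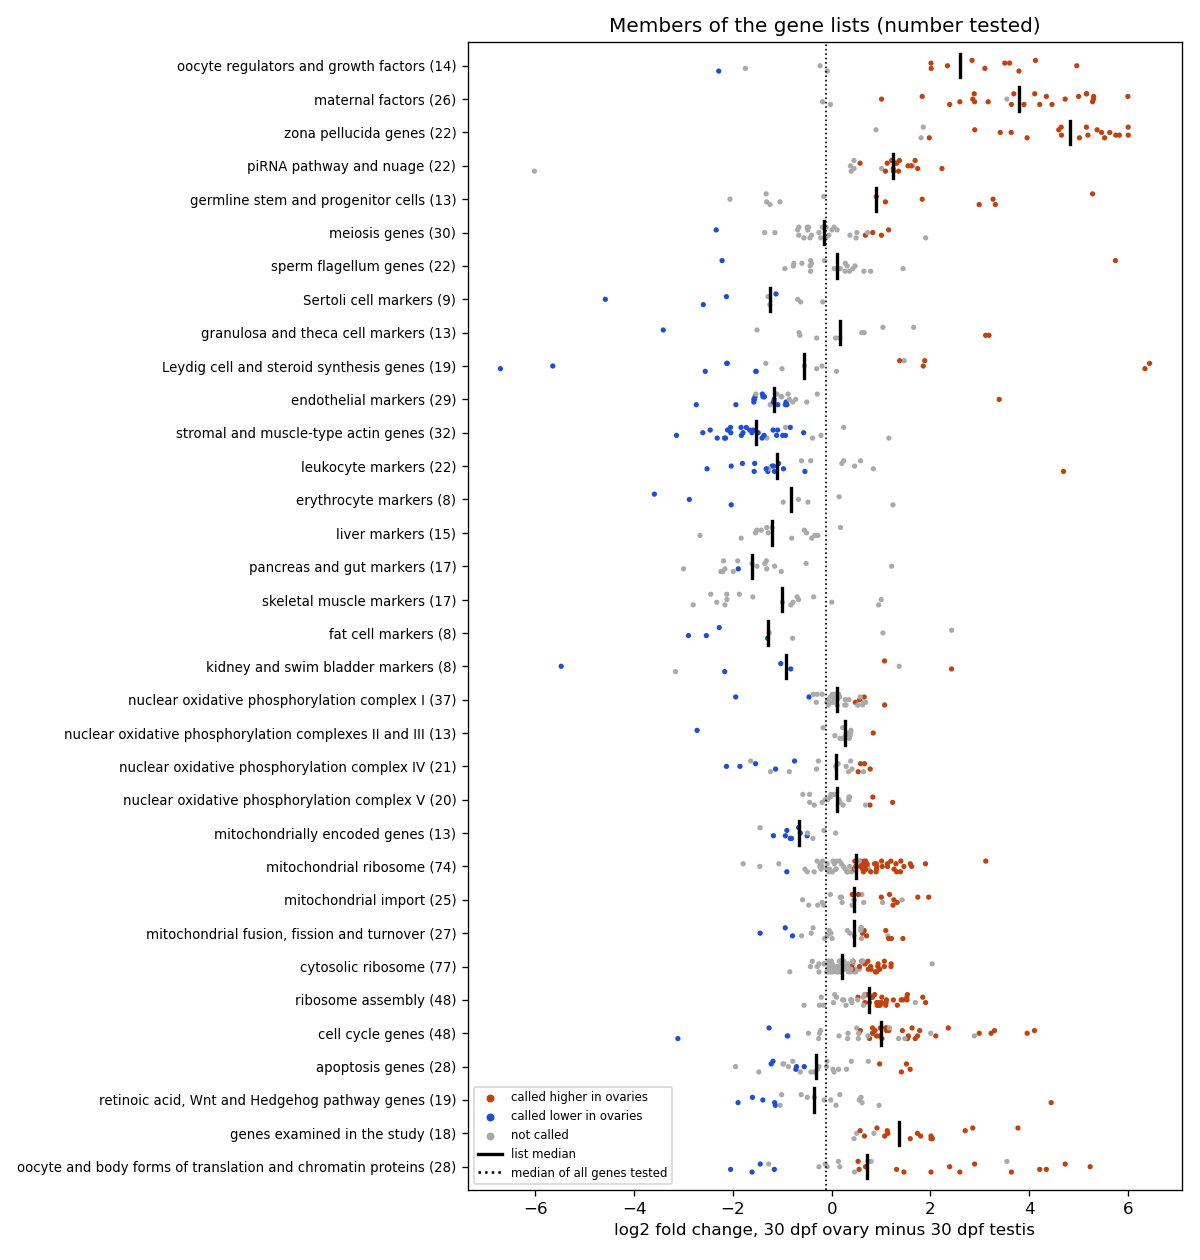
Log2 fold change of each tested member of the 34 gene lists, 30 dpf ovary minus 30 dpf testis, with 1 point for each gene (orange called higher, blue called lower, grey not called). Black bars are list medians and the dotted line is the median of all genes tested (-0.11); the medians run between 4.83 for zona pellucida genes and -1.62 for pancreas and gut genes.

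Several genes of the male supporting cells were lower in ovaries. Of 9 Sertoli cell markers matched and tested, 0 were called higher and 4 lower (background 16.5%), with a median of -1.25, and 3 were lower without testis 1. The summed level was 951, 932 and 1269 CPM in the ovaries, against 1698, 4931 and 6863 CPM in the testes. Amh had 27.4, 26.6 and 12 CPM in the ovaries, against 15.4, 528 and 1038 CPM in the testes (log2 fold change -4.59 ± 1.09 SE, adjusted p = 0.0081). In testis 1 it lay within the range of the ovaries, and without that library the difference was -5.16, adjusted p = 0.0011. DMRT1, the conserved factor of testis development, had 17.7, 11.5 and 20.3 CPM in the ovaries, against 17.21, 121 and 163 CPM in the testes (log2 fold change -2.60 ± 0.61 SE, adjusted p = 0.0077), and -3.10, adjusted p = 0.001 without testis 1. Gsdf, a growth factor of supporting cells in fish, had 734, 632 and 999 CPM in the ovaries, against 1240.2, 3947 and 5170.0 CPM in the testes (log2 fold change -2.13 ± 0.54 SE, adjusted p = 0.011). It was abundant in the ovaries too, so it did not mark one sex. Outside the list, SOX9 (ENSDARG00000003293), a Sertoli cell factor in mammals, had 3.49, 2.61 and 6.7 CPM in the ovaries, against 12.8, 39.2 and 43.5 CPM in the testes (log2 fold change -2.88 ± 0.60 SE, adjusted p = 0.0039), while the copy ENSDARG00000043923 was at 2.68, 1.04 and 1.62 CPM in the ovaries, against 3.4, 1.44 and 2.01 CPM in the testes (log2 fold change -0.36 ± 0.55 SE, adjusted p = 0.64). WT1 (ENSDARG00000031420), a factor of both supporting lineages, was called lower (-1.13, adjusted p = 0.033) and lost the call without testis 1 (-0.85, adjusted p = 0.12) and without ovary 1, ovary 2 or testis 2.

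Few genes of the female supporting cells differed with all libraries in the fit. Of 14 granulosa and theca cell markers matched, 13 were tested, 2 called higher and 1 lower (18.7% and 16.5% of all genes). Their median of 0.16 turned to -0.01 with upper-quartile factors and to -0.14 by library size. The median of all genes moved likewise, with -0.11, -0.29 and -0.41 for the same scalings. Without testis 1, 4 were called higher and 1 lower, with a median of 0.62. CYP19A1 (gonadal aromatase), which makes oestrogen, had 8.31, 10.7 and 49.6 CPM in the ovaries, against 30.0, 2.46 and 1.01 CPM in the testes (log2 fold change 1.04 ± 1.01 SE, adjusted p = 0.45). Testis 1 lay above ovaries 1 and 2, and without it the gene was called higher (3.71, adjusted p = 0.016). Without ovary 3 the value was -0.25, adjusted p = 0.87. FOXL2, the factor that keeps granulosa cells female, has 2 copies here. The copy ENSDARG00000068417 had 61.2, 68.4 and 42.9 CPM in the ovaries, against 39.2, 8.83 and 6.44 CPM in the testes (log2 fold change 1.66 ± 0.78 SE, adjusted p = 0.12), and 2.90, adjusted p = 0.023 without testis 1. The copy ENSDARG00000042180 had 0.536, 0.261 and 69.5 CPM in the ovaries, against 62.4, 2.26 and 2.21 CPM in the testes (log2 fold change 0.08 ± 1.65 SE, adjusted p = 0.97). It was high in ovary 3 and testis 1 only, and its value was -5.75, adjusted p = 0.077 without ovary 3. Hsd17b1, which converts oestrone to oestradiol, had 74.3, 57.7 and 98.6 CPM in the ovaries, against 24.4, 1.64 and 0.402 CPM in the testes (log2 fold change 3.12 ± 0.96 SE, adjusted p = 0.027). Testis 1 was again the testis nearest to the ovaries, and the difference was 6.20, adjusted p = 0.0011 without it. The call was lost without ovary 1, ovary 3 or testis 2 (adjusted p of 0.056, 0.058 and 0.070). FSHR, the receptor of follicle-stimulating hormone, was near the floor, with 10, 21 and 23 counts in the ovaries, against 3, 2 and 2 counts in the testes, so no fold is given. It was called with 3 against 3 gonads (adjusted p = 0.041) and lost the call without any one of them. Of the activin genes, INHBA and the INHBB copy ENSDARG00000040777 were lower in ovaries. The INHBB copy ENSDARG00000103892 was near the floor in both sexes and was not tested. INHBB (ENSDARG00000040777) had 13.9, 14.1 and 13.9 CPM in the ovaries, against 43.8, 174 and 228 CPM in the testes (log2 fold change -3.41 ± 0.64 SE, adjusted p = 0.0022), and INHBA had 0.536, 1.31 and 1.15 CPM in the ovaries, against 22.6, 76.4 and 103 CPM in the testes (log2 fold change -6.03 ± 1.15 SE, adjusted p = 0.0025). In testis 1 both lay between the ovaries and the other testes.

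Steroid genes divided into a set high in ovaries and a set high in testes. Of 19 Leydig cell and steroid synthesis genes tested, 5 were called higher and 7 lower (18.7% and 16.5% of all genes). Their median was -0.55, and the same counts held without testis 1. The number higher was 3 without ovary 1, ovary 2 or testis 2. CYP11A1 (ENSDARG00000002347), the enzyme that cuts the side chain of cholesterol, had 999, 799 and 455 CPM in the ovaries, against 1, 15.6 and 11.1 CPM in the testes (log2 fold change 6.34 ± 0.85 SE, adjusted p = 0.00041). Hsd3b2, which carries out the next step to progesterone, had 137, 148 and 56.8 CPM in the ovaries, against 0.2, 3.49 and 0.201 CPM in the testes (log2 fold change 6.44 ± 1.02 SE, adjusted p = 0.00095). For both, the lowest ovary held over 10 times the level of the highest testis. The other copies of these enzymes did not follow. Hsd3b1 was lower in ovaries, with 41.6, 7.31 and 31.2 CPM in the ovaries, against 48.6, 117 and 306 CPM in the testes (log2 fold change -2.56 ± 0.65 SE, adjusted p = 0.011), a call lost without testis 3 (-1.64, adjusted p = 0.051). CYP11A1 (ENSDARG00000092696) had 29.2, 13.1 and 21.7 CPM in the ovaries, against 10.2, 26.7 and 91.7 CPM in the testes (log2 fold change -1.01 ± 0.62 SE, adjusted p = 0.23), and was called lower without testis 1 (-1.48, adjusted p = 0.045). In zebrafish, cyp11a1 RNA is known to be stored in eggs. Of the androgen genes, cyp11c1, STAR and CYP17A1 were higher in testes 2 and 3 than in testis 1, while HSD11B2 was highest in testis 1. Cyp11c1, which adds the oxygen of fish androgens, had 1.07, 1.57 and 3 CPM in the ovaries, against 56.2, 191 and 360.3 CPM in the testes (log2 fold change -6.71 ± 1.25 SE, adjusted p = 0.0022). STAR, which brings cholesterol into mitochondria, had 6.44, 6.01 and 2.08 CPM in the ovaries, against 14.2, 176 and 535 CPM in the testes (log2 fold change -5.65 ± 1.38 SE, adjusted p = 0.0092). In both, testis 1 was the lowest testis and still above every ovary. CYP17A1, which makes androgen precursors, had 184, 107 and 70.7 CPM in the ovaries, against 219.7, 416 and 929.5 CPM in the testes (log2 fold change -2.12 ± 0.55 SE, adjusted p = 0.013), and the call was lost without testis 3 (-1.40, adjusted p = 0.057). HSD11B2 had 162, 268 and 399 CPM in the ovaries, against 1045, 433 and 916 CPM in the testes (log2 fold change -1.53 ± 0.38 SE, adjusted p = 0.01). The steroid cell factor NR5A1 was lower for both copies, with log2 fold changes of -2.13 (ENSDARG00000103176) and -1.54 (ENSDARG00000023362); the second lost its call without testis 1 (-1.19, adjusted p = 0.086), ovary 1 or ovary 2. Insl3, a Leydig cell hormone, was at 5.1, 6.27 and 2.77 CPM in the ovaries, against 0.6, 0.821 and 3.62 CPM in the testes (log2 fold change 1.47 ± 0.68 SE, adjusted p = 0.12), so it did not mark the testes at this age.

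**Figure D3:**
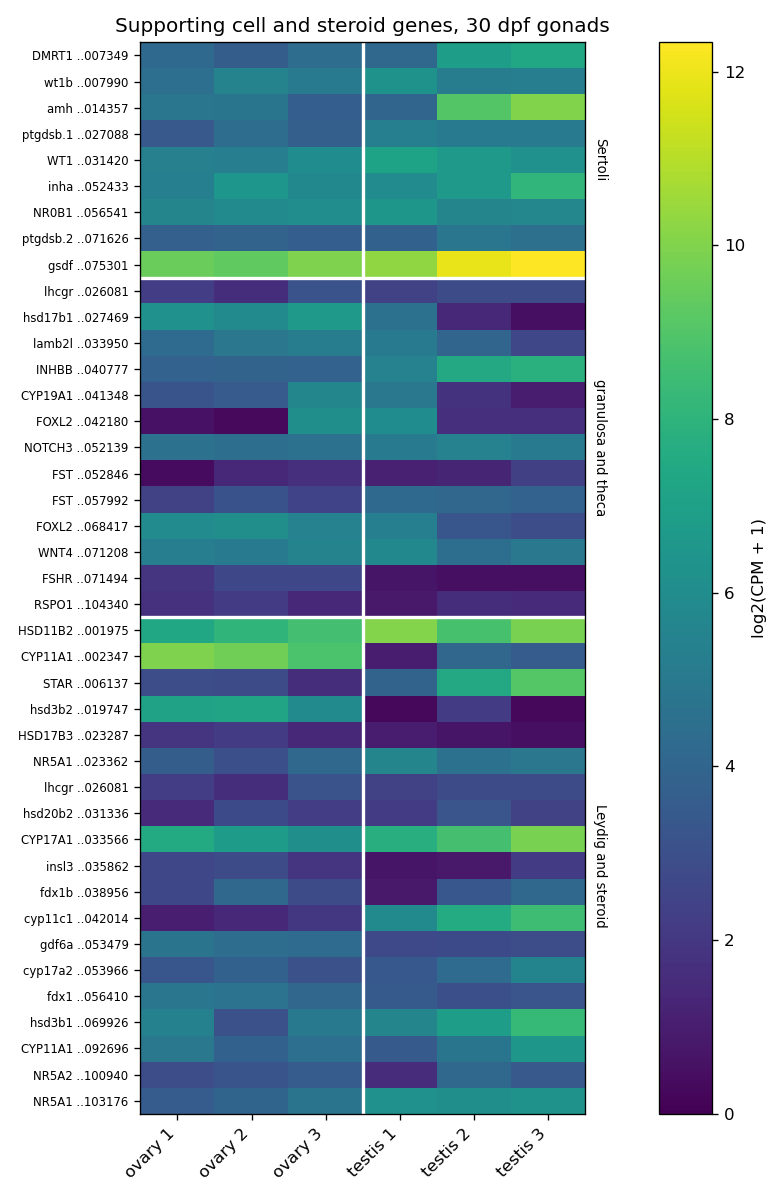
Level of Sertoli cell, granulosa and theca cell, and Leydig cell and steroid genes in each 30 dpf gonad, as log2(CPM + 1) by colour (yellow high, dark low), with 3 ovaries at left and 3 testes at right. The column of testis 1 is dark for amh and STAR and bright for the FOXL2 copy ENSDARG00000042180, unlike testes 2 and 3.

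Most matrix genes of the gonad's somatic tissue were lower in ovaries, and here testis 1 went with the other testes. Of 34 stromal and muscle-type actin genes matched, 32 were tested, 0 called higher and 26 lower, with a median of -1.54. Their summed level was 3280.0, 3407 and 4573 CPM in the ovaries, against 12979, 11625 and 12919 CPM in the testes. COL1A2, a chain of type I collagen, had 541, 536 and 714 CPM in the ovaries, against 2576, 2598 and 2875 CPM in the testes (log2 fold change -2.17 ± 0.22 SE, adjusted p = 0.00019). DCN (decorin), a matrix proteoglycan, had 103, 161 and 206 CPM in the ovaries, against 695, 773 and 876 CPM in the testes (log2 fold change -2.32 ± 0.33 SE, adjusted p = 0.00052). PDGFRB, the receptor of pericytes, had 31.1, 29.8 and 36.7 CPM in the ovaries, against 88.4, 112 and 123 CPM in the testes (log2 fold change -1.73 ± 0.31 SE, adjusted p = 0.0018). For each of the 3 genes every ovary was far below every testis. FN1 (ENSDARG00000006526), fibronectin, had 302, 265 and 399 CPM in the ovaries, against 3298, 1325 and 1268 CPM in the testes (log2 fold change -2.61 ± 0.47 SE, adjusted p = 0.0018). Smooth muscle actin acta2 did not follow the list, with 183, 162 and 413 CPM in the ovaries, against 47.4, 459 and 135 CPM in the testes (log2 fold change 0.24 ± 0.75 SE, adjusted p = 0.82), and its levels overlapped.

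Of 29 endothelial markers tested, 1 was called higher and 16 lower, with a median of -1.16. Sox18, a vessel factor, had 21.7, 15.1 and 16.6 CPM in the ovaries, against 52.8, 43.1 and 45.7 CPM in the testes (log2 fold change -1.41 ± 0.23 SE, adjusted p = 0.001), and FLI1, a factor of endothelium and blood, had 29, 24.5 and 28.2 CPM in the ovaries, against 52.8, 97.7 and 59.6 CPM in the testes (log2 fold change -1.36 ± 0.27 SE, adjusted p = 0.0029). Kdrl, the main endothelial receptor of vascular growth factor in zebrafish, had 53.6, 34.7 and 42.9 CPM in the ovaries, against 110.2, 77.8 and 157 CPM in the testes (log2 fold change -1.39 ± 0.37 SE, adjusted p = 0.013), a call lost without ovary 2 (-1.27, adjusted p = 0.054) or testis 3 (-1.11, adjusted p = 0.053). The single member called higher was stab2, a scavenger receptor, with 44.3, 55.1 and 1.15 CPM in the ovaries, against 4, 1.85 and 3.62 CPM in the testes (log2 fold change 3.39 ± 0.99 SE, adjusted p = 0.021). Ovary 3 was below every testis for it, and the call was lost without ovary 1, ovary 2 or any one testis. The number called lower was 9 without ovary 2 or without testis 2, and 14 without testis 1.

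Of 22 leukocyte markers tested, 1 was called higher and 13 lower, with a median of -1.12; the number lower was 6 without ovary 1 or without ovary 2. LCP1 (L-plastin), an actin bundler of leukocytes, had 211, 179 and 246 CPM in the ovaries, against 502, 439 and 497 CPM in the testes (log2 fold change -1.18 ± 0.18 SE, adjusted p = 0.00077). SPI1 (Pu.1), the myeloid factor, had 24.7, 25.9 and 21.2 CPM in the ovaries, against 59.23, 55.6 and 45.5 CPM in the testes (log2 fold change -1.16 ± 0.24 SE, adjusted p = 0.0037). Ctss2.1, a cathepsin S gene, went the other way, with 1792, 2041 and 1624 CPM in the ovaries, against 64.6, 113 and 32.6 CPM in the testes (log2 fold change 4.69 ± 0.59 SE, adjusted p = 0.00033). Without it the list's summed level was 1212, 943 and 1299 CPM in the ovaries, against 2625, 1732 and 2283 CPM in the testes. The number lower was 9 without testis 1 or testis 2, and 8 without testis 3.

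Markers of neighbouring organs were uneven between single gonads. Pancreas and gut genes summed to 95.5, 776 and 566 CPM in the ovaries, against 641, 4131 and 1032 CPM in the testes, and erythrocyte genes to 203, 463 and 312 CPM in the ovaries, against 317, 2654 and 1138 CPM in the testes. Testis 2 was the highest gonad in both, and in liver genes (42.9, 288 and 238 CPM in the ovaries, against 554, 1303 and 349.9 CPM in the testes). Of the 17 pancreas and gut genes tested, 0 were called higher and 1 lower, and of 8 erythrocyte genes, 0 higher and 3 lower (0 lower without testis 2 or without ovary 1). None of 15 liver genes or 17 skeletal muscle genes was called (0 of each list had an unadjusted p under 0.05 in edgeR, and DESeq2 called 0). Skeletal muscle genes summed to 100.3, 162 and 181 CPM in the ovaries, against 322, 342 and 502 CPM in the testes. Single members of these lists (lyz for leukocytes, hbbe3 for erythrocytes, vtg4 for liver, smyhc1 for muscle and lepa for fat) had no count in any of the 6 gonads, while others were present in all: hbaa1, an alpha globin, had 32.5, 124 and 46.6 CPM in the ovaries, against 63.6, 947 and 488 CPM in the testes. The gene vtg3, of yolk protein, was at 1.61, 0.522 and 0.462 CPM in the ovaries, against 2.2, 0.205 and 1.01 CPM in the testes. Of 11 kidney and swim bladder genes, 8 were tested, 2 called higher and 4 lower (2 lower without ovary 1, ovary 3 or testis 2), and the list summed to 226, 248 and 282 CPM in the ovaries, against 381, 1389 and 454 CPM in the testes. The surfactant gene sftpba had 4.02, 4.96 and 8.54 CPM in the ovaries, against 7.2, 756 and 27 CPM in the testes (log2 fold change -5.48 ± 1.36 SE, adjusted p = 0.01), and the difference was -1.52, adjusted p = 0.045 without testis 2. Of 12 fat cell genes, 8 were tested and 4 called lower, while 0 were lower without ovary 2, 1 without ovary 1 and 2 without testis 2. Their sum was 965, 743 and 952 CPM in the ovaries, against 2286, 3113 and 3266 CPM in the testes. Pparg, the factor of fat cells, had 1.34, 2.87 and 4.85 CPM in the ovaries, against 29.4, 24.8 and 14.5 CPM in the testes (log2 fold change -2.90 ± 0.77 SE, adjusted p = 0.014), a call lost without ovary 1 (-2.56, adjusted p = 0.056). The other lower calls were fabp4a and both copies of LPL. ADIPOQ (ENSDARG00000062228), the adiponectin gene, was near the floor and not called, and lay higher in every ovary than in every testis (2.43, adjusted p = 0.054). The part of these tissues in the differences above was not tested.

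**Figure D4:**
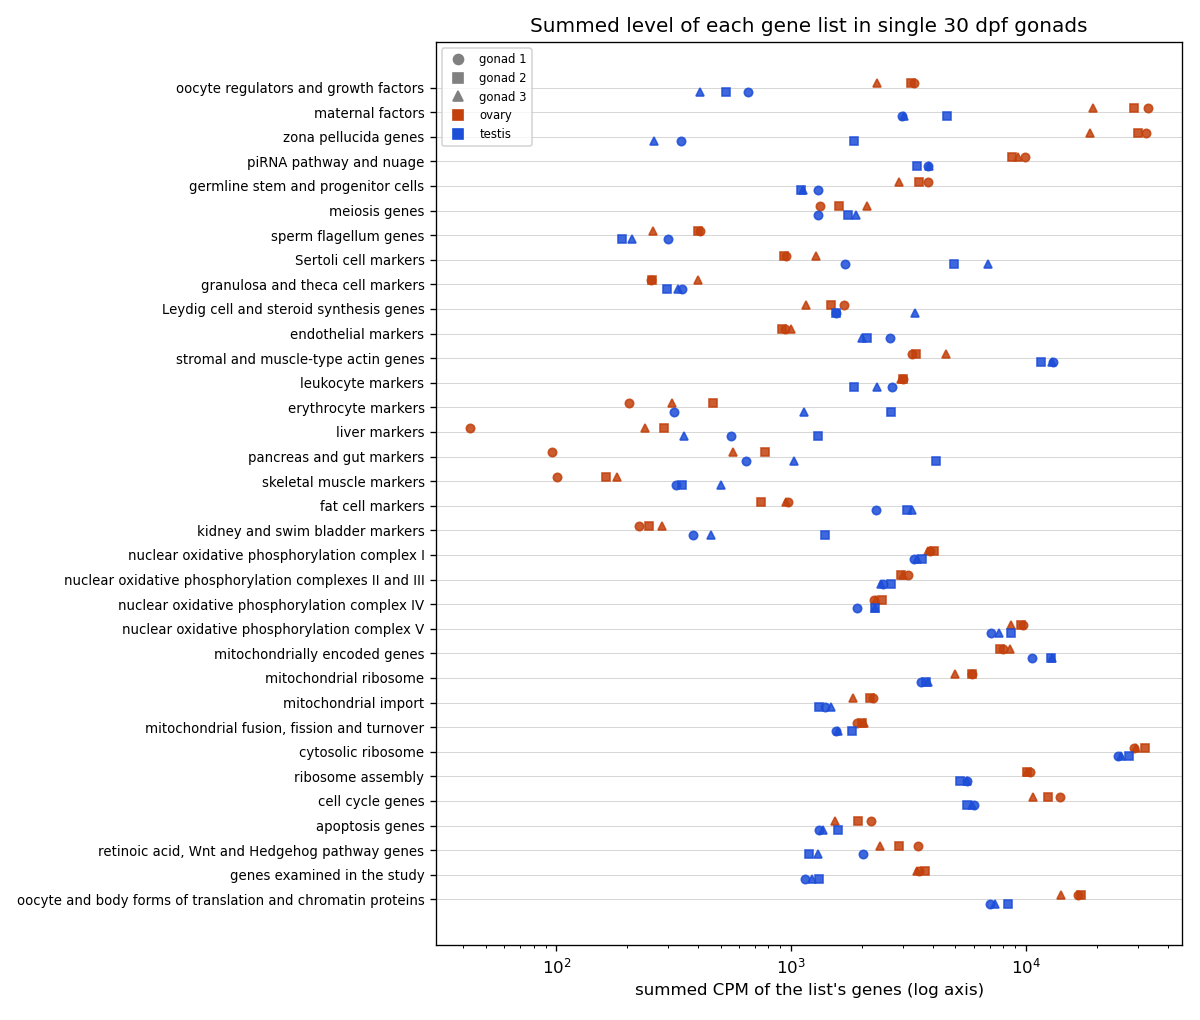
Summed CPM of the genes of each list in single 30 dpf gonads on a log axis, with orange for ovaries and blue for testes (circle 1, square 2, triangle 3). Oocyte lists lie higher in every ovary and stromal and endothelial lists lower in every ovary, while the blue square of testis 2 stands out in the zona pellucida, erythrocyte, liver, pancreas and gut, and kidney and swim bladder lists.

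Pld6, which the study examined, acts at mitochondria, organelles that multiply during oocyte growth and carry their own genome. Of the 13 genes encoded by that genome, 8 were called lower and 0 higher, with a median of -0.67, and the count was 4 without testis 2 or without testis 3, and 5 without ovary 1 or without ovary 2. Their sum was 7991, 7759.7 and 8516 CPM in the ovaries, against 10620.4, 12729 and 12837 CPM in the testes. MT-ND2, a subunit of complex I, had 321, 319 and 393 CPM in the ovaries, against 594, 762 and 982 CPM in the testes (log2 fold change -1.18 ± 0.21 SE, adjusted p = 0.002). TFAM, which packs and transcribes mitochondrial DNA and is encoded in the nucleus, was lower as well, with 33, 50.1 and 52.9 CPM in the ovaries, against 81.6, 85.2 and 94.4 CPM in the testes (log2 fold change -0.94 ± 0.22 SE, adjusted p = 0.0069). Calls among nuclear genes of oxidative phosphorylation had no common direction. Subunits were grouped by symbol. Of those tested, 4 were called higher and 2 lower of 37 in complex I, and 1 and 1 of 13 in complexes II and III. The counts were 4 and 5 of 21 in complex IV, and 3 and 0 of 20 in complex V. The 2 lower under complex I symbols were ndufa4b and NDUFA4, and the NDUFA4 protein is now placed in complex IV. The medians were 0.11, 0.27, 0.08 and 0.10 (all genes, -0.11). By library size alone they were -0.22, -0.03, -0.22 and -0.20 (all genes, -0.41). After TMM scaling, the summed levels of complexes I, II with III, and V were higher in every ovary than in every testis. For complex I the sum was 3886, 4070 and 3840 CPM in the ovaries, against 3317, 3606 and 3418 CPM in the testes. The sums of complex IV overlapped. The number higher in complex I was 1 without ovary 2 and 2 without ovary 1, testis 2 or testis 3, and that in complex IV 1 without ovary 2 and 2 without ovary 1 or testis 1. Single subunits ran opposite ways. Atp5mc3b, a ring subunit of ATP synthase, had 1514, 1692 and 1179.8 CPM in the ovaries, against 563, 697 and 603 CPM in the testes (log2 fold change 1.23 ± 0.18 SE, adjusted p = 0.0006), while COX4I2, a variant subunit of complex IV, had 11.5, 19.8 and 12.7 CPM in the ovaries, against 47, 42.5 and 38.8 CPM in the testes (log2 fold change -1.54 ± 0.31 SE, adjusted p = 0.0032).

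Genes for making and importing mitochondrial proteins were called almost only in the other direction. Of 74 genes of the mitochondrial ribosome tested, 38 were called higher and 1 lower, with a median of 0.49; the number higher was 25 without testis 1 or without ovary 1. MRPL22 had 109, 118 and 91.9 CPM in the ovaries, against 36.4, 32 and 37.2 CPM in the testes (log2 fold change 1.59 ± 0.16 SE, adjusted p = 0.00019), and mrps18b had 293, 226 and 166 CPM in the ovaries, against 72.6, 80.3 and 70.0 CPM in the testes (log2 fold change 1.62 ± 0.20 SE, adjusted p = 0.00029). The exception was MRPS25, with 54.2, 64.2 and 71.1 CPM in the ovaries, against 111, 116 and 128 CPM in the testes (log2 fold change -0.91 ± 0.16 SE, adjusted p = 0.0016). Of 25 import genes, 9 were called higher and 0 lower (18.7% and 16.5% of all genes), with a median of 0.45. These were led by the small chaperones of the intermembrane space: TIMM9 had 73, 85.1 and 73 CPM in the ovaries, against 32.2, 31.4 and 32.8 CPM in the testes (log2 fold change 1.26 ± 0.16 SE, adjusted p = 0.00037), and timm10b had 81.3, 72.9 and 41.8 CPM in the ovaries, against 15.2, 14 and 20.9 CPM in the testes (log2 fold change 1.96 ± 0.28 SE, adjusted p = 0.00057). Of 29 genes of mitochondrial fusion, fission and turnover, 27 were tested, 7 called higher (4 without ovary 1 or testis 3) and 3 lower, or 37.0% called against 35.2% of all genes. The fusion genes mfn1b, MFN2 and OPA1 and the fission gene DNM1L, which the study measured in pld6 mutants, were not called. Their log2 fold changes were -0.05, 0.59, -0.14 and 0.32 (adjusted p of 0.84, 0.24, 0.50 and 0.057). DNM1L was higher in every ovary than in every testis, and DESeq2 called it (adjusted p = 0.0068). The study also measured TFAM and MAP1LC3B in the mutants, and these were called lower in ovaries here. The remaining mitochondrial genes that it measured there were not called or not tested. MIGA1 (mitoguardin), which promotes fusion through the Pld6 protein in mammals, had 106, 103 and 95.1 CPM in the ovaries, against 41.8, 45.2 and 44.5 CPM in the testes (log2 fold change 1.21 ± 0.18 SE, adjusted p = 0.00077). Its relative MIGA2 had 21.2, 18.3 and 21.7 CPM in the ovaries, against 3.8, 7.39 and 11.3 CPM in the testes (log2 fold change 1.44 ± 0.34 SE, adjusted p = 0.0081). PGAM5, a phosphatase of the outer membrane, had 356, 369 and 305 CPM in the ovaries, against 157, 158 and 167 CPM in the testes (log2 fold change 1.09 ± 0.17 SE, adjusted p = 0.00082). MAP1LC3B, an autophagy protein, was lower, with 60.1, 121 and 78.3 CPM in the ovaries, against 253, 239 and 215 CPM in the testes (log2 fold change -1.45 ± 0.25 SE, adjusted p = 0.0015). FIS1, a fission adaptor, was called lower (-0.79, adjusted p = 0.036) and lost the call without any gonad other than testis 1.

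Genes of ribosome assembly were mostly higher. Of 48 genes tested, 30 were called higher and 0 lower, with a median of 0.76, and 28 to 31 were called higher with any single gonad left out. The summed level was 10384, 10051 and 10059 CPM in the ovaries, against 5590.3, 5245 and 5627 CPM in the testes. DKC1 (dyskerin), which modifies ribosomal RNA, had 855, 725 and 906 CPM in the ovaries, against 296, 293 and 277 CPM in the testes (log2 fold change 1.52 ± 0.18 SE, adjusted p = 0.00028), and IMP4, a factor of the early small subunit, had 177, 162 and 141 CPM in the ovaries, against 49, 52.8 and 64.8 CPM in the testes (log2 fold change 1.53 ± 0.16 SE, adjusted p = 0.0002). The ribosomal protein genes differed less. Of 77 tested, 19 were called higher (24.7%, against a background of 18.7%) and 0 lower. Their median was 0.22, and -0.08 by library size (all genes, -0.11 and -0.41). The number higher was 8 without ovary 2, 9 without testis 1, 11 without testis 3 and 12 without ovary 1. RPS10 had 573, 577 and 455 CPM in the ovaries, against 244, 278 and 244 CPM in the testes (log2 fold change 1.07 ± 0.17 SE, adjusted p = 0.00095).

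Of 48 cell cycle genes, 27 were called higher and 3 lower, with a median of 1.00. The mitotic kinase aurka had 844, 662 and 409 CPM in the ovaries, against 54.4, 90.5 and 59.4 CPM in the testes (log2 fold change 3.23 ± 0.31 SE, adjusted p = 0.00017), and cyclin CCNB2 had 972, 656 and 388 CPM in the ovaries, against 31.4, 54.2 and 31.4 CPM in the testes (log2 fold change 4.11 ± 0.44 SE, adjusted p = 0.00021). Ovary 1 was the highest and ovary 3 the lowest ovary in both. The members differed in size of change: CDC20, which activates the anaphase complex, had 456, 335 and 206 CPM in the ovaries, against 52.8, 68 and 73 CPM in the testes (log2 fold change 2.36 ± 0.30 SE, adjusted p = 0.00033), while PCNA, the clamp of DNA replication, had 1396, 1361 and 1269 CPM in the ovaries, against 917, 845 and 931 CPM in the testes (log2 fold change 0.58 ± 0.12 SE, adjusted p = 0.0035), and mki67, present in proliferating cells, had 165, 128 and 162 CPM in the ovaries, against 126, 132 and 106 CPM in the testes (log2 fold change 0.32 ± 0.18 SE, adjusted p = 0.18). The number called higher was 23 to 26 with any single gonad left out. MCM6 (ENSDARG00000057683), a subunit of the replicative helicase, was lower in ovaries, with 163, 105 and 204 CPM in the ovaries, against 453, 266 and 416 CPM in the testes (log2 fold change -1.27 ± 0.32 SE, adjusted p = 0.011), while the copy ENSDARG00000033231 had 111, 105 and 64 CPM in the ovaries, against 2.2, 20.9 and 14.5 CPM in the testes (log2 fold change 2.89 ± 1.07 SE, adjusted p = 0.055). CCND1, the cyclin of growth signals, was called lower (-0.90, adjusted p = 0.03) but not without testis 1 (-0.61, adjusted p = 0.12), ovary 1 or ovary 2. ORC1 was called lower (-3.12, adjusted p = 0.047) and lost the call without any one of the 6 gonads.

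Genes of apoptosis, by which oocytes of future males are cleared in zebrafish, had no common direction: of 28 tested, 4 were called higher and 5 lower (32.1%, against 35.2% of all genes), with a median of -0.33. The number lower was 2 without ovary 2 or testis 2 and 3 without ovary 1 or testis 1, and the number higher 2 without ovary 1. The survival gene mcl1a was higher, with 1135, 899.6 and 577 CPM in the ovaries, against 314, 426 and 240.2 CPM in the testes (log2 fold change 1.41 ± 0.33 SE, adjusted p = 0.0079), and its relative mcl1b lower, with 51.5, 89.6 and 61.6 CPM in the ovaries, against 87.4, 175 and 211 CPM in the testes (log2 fold change -1.23 ± 0.30 SE, adjusted p = 0.0085).

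In the retinoic acid, Wnt and Hedgehog pathways, 1 of 19 genes tested was called higher and 5 lower (31.6%, against 35.2% of all genes), with a median of -0.35. RDH10 (ENSDARG00000012369), which makes retinal, had 2309, 1852 and 1260.2 CPM in the ovaries, against 67.6, 119 and 62.2 CPM in the testes (log2 fold change 4.44 ± 0.49 SE, adjusted p = 0.00021). The copy ENSDARG00000058730 had 44.5, 40.5 and 45.3 CPM in the ovaries, against 205, 72.1 and 65.6 CPM in the testes (log2 fold change -1.39 ± 0.37 SE, adjusted p = 0.013), and its difference was -0.67, adjusted p = 0.026 without testis 1. CYP26B1, which breaks retinoic acid down, had 22.8, 20.1 and 32.8 CPM in the ovaries, against 208, 39 and 34.8 CPM in the testes (log2 fold change -1.90 ± 0.61 SE, adjusted p = 0.032); testis 1 alone stood out, and the call was lost without it (-0.55, adjusted p = 0.26), without ovary 1 and without ovary 2. SMO, the Hedgehog signal transducer, was lower, with 32.5, 29.5 and 52.4 CPM in the ovaries, against 95, 74.7 and 82.7 CPM in the testes (log2 fold change -1.14 ± 0.23 SE, adjusted p = 0.0033). Without testis 1, 4 genes of the list were called higher and 3 lower, and without ovary 1, 3 were lower.

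The genes that the study followed from its screen were chosen on these samples and on microarrays of gonads with and without germ cells. Their direction here is thus not independent evidence. Of 18 matched and tested, 15 were called higher and 0 lower, with a median of 1.36. SNAPC1, a factor for small nuclear RNA genes, had 465, 433 and 367 CPM in the ovaries, against 58.8, 65.3 and 69.8 CPM in the testes (log2 fold change 2.70 ± 0.28 SE, adjusted p = 0.0002), and rnf17, a Tudor protein of germ cells, had 112, 96.4 and 88.4 CPM in the ovaries, against 42.6, 39 and 54.5 CPM in the testes (log2 fold change 1.12 ± 0.17 SE, adjusted p = 0.00073). The gene zgc:103482 had 481, 409 and 403 CPM in the ovaries, against 106, 129 and 136 CPM in the testes (log2 fold change 1.80 ± 0.20 SE, adjusted p = 0.00022). The members not called were pld6, ccnd3 and cyp2x7. By RT-qPCR on pooled juvenile gonads, the study reported pld6, org, zgc:103482 and rnf17 as higher in ovaries than in testes.

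Oocytes use their own forms of several proteins of translation and chromatin. Of 28 such genes and their body forms tested, 14 were called higher and 4 lower (2 lower without any one ovary or testis 2). Several of those higher, among them PABPC1L, CPEB1, ZAR1 and h1m, were already counted among the maternal factors. The higher calls included body forms. TBP had 314, 240 and 214 CPM in the ovaries, against 95.6, 106 and 107 CPM in the testes (log2 fold change 1.31, adjusted p = 0.00052), beside 2.01 for its oocyte form TBPL2 (adjusted p = 0.00056). Eef1a1l1 (0.53, adjusted p = 0.012) and npm3 (0.68, adjusted p = 0.0039) were also called higher. Among poly(A)-binding proteins, the oocyte form PABPC1L had 459, 381 and 304 CPM in the ovaries, against 24.6, 46.4 and 20.7 CPM in the testes (log2 fold change 3.64 ± 0.44 SE, adjusted p = 0.00029), while the body form pabpc1b had 153, 144 and 184 CPM in the ovaries, against 573, 425 and 473 CPM in the testes (log2 fold change -1.61 ± 0.20 SE, adjusted p = 0.00029), and the more abundant body form pabpc1a was not called, with 1542, 1590.5 and 1579.7 CPM in the ovaries, against 1809, 1971 and 1852 CPM in the testes (log2 fold change -0.26 ± 0.11 SE, adjusted p = 0.086). The oocyte linker histone h1m had 1231, 1275 and 593 CPM in the ovaries, against 10.2, 137 and 20.3 CPM in the testes (log2 fold change 4.21 ± 0.92 SE, adjusted p = 0.005). GTF3A, the factor for ribosomal RNA genes transcribed by RNA polymerase III, differed strongly for the copy ENSDARG00000071583, with 174, 239 and 149.6 CPM in the ovaries, against 1.4, 12.1 and 1.41 CPM in the testes (log2 fold change 5.23 ± 0.78 SE, adjusted p = 0.00068). The copy ENSDARG00000030267 was at 106, 108 and 97.7 CPM in the ovaries, against 72.6, 59.5 and 79.9 CPM in the testes (log2 fold change 0.55 ± 0.20 SE, adjusted p = 0.0499) and lost the call without any one gonad. CPEB1 (ENSDARG00000008454), which controls the poly(A) tails of stored RNA, had 2668, 2285 and 1427 CPM in the ovaries, against 74.6, 163 and 75.2 CPM in the testes (log2 fold change 4.35 ± 0.58 SE, adjusted p = 0.00041). Its relative cpeb1a had 58.7, 88.3 and 117 CPM in the ovaries, against 68.2, 54.6 and 68.4 CPM in the testes (log2 fold change 0.46 ± 0.28 SE, adjusted p = 0.22).

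The largest differences among called genes with a mean of at least 10 CPM and no overlap lay, on the higher side, in genes whose roles are not given here. The gene si:ch1073-75o15.3 (ENSDARG00000095741) was the most abundant of the 8 higher genes, with 3385, 3048 and 208 CPM in the ovaries, against 7, 21.1 and 1.81 CPM in the testes (log2 fold change 7.79 ± 1.56 SE, adjusted p = 0.0033). Ovary 3 held far less of it than the other ovaries. The next gene, ENSDARG00000094370, had 716, 673 and 364 CPM in the ovaries, against 3.8, 6.16 and 1.41 CPM in the testes (log2 fold change 7.26 ± 1.36 SE, adjusted p = 0.0023). The other 6 were at or under 3 counts in every testis, so no fold is given. Ly6m6, of the Ly6 family of surface proteins, had 211, 92 and 45 counts in the ovaries, against 0, 0 and 1 counts in the testes, and si:dkey-172k15.14 had 140, 106 and 92 counts in the ovaries, against 0, 1 and 0 counts in the testes. The gene si:dkey-172k15.18 had 50.7, 23.5 and 19.2 CPM in the ovaries, against 0.2, 0.205 and 0 CPM in the testes. The gene si:dkey-9c18.3 was not evenly high, with 365, 243 and 4 counts in the ovaries, against 0, 1 and 1 counts in the testes. The genes loc110437821 and si:dkeyp-98a7.5 likewise had 17 and 11 counts in ovary 3 and over 200 counts in each of ovaries 1 and 2. The 8 lower genes were led by cyp11c1, described above, and included INHBA, STAR and MMEL1. MMEL1, a membrane metallopeptidase, had 2.68, 2.35 and 0.462 CPM in the ovaries, against 7, 114 and 161 CPM in the testes (log2 fold change -5.68 ± 1.11 SE, adjusted p = 0.0029). The gene si:dkey-211f22.5 had 1.07, 3.13 and 1.62 CPM in the ovaries, against 3.6, 147 and 295 CPM in the testes (log2 fold change -6.24 ± 1.55 SE, adjusted p = 0.0099). In both, testis 1 was far below the other testes. Gpx3, an extracellular glutathione peroxidase, had 0, 2 and 2 counts in the ovaries, against 7, 64 and 182 counts in the testes. The gene zgc:92380 rested on testis 2, with 0.805, 0.261 and 1.15 CPM in the ovaries, against 1.4, 193 and 3.42 CPM in the testes (log2 fold change -6.41 ± 1.98 SE, adjusted p = 0.027) and -1.63, adjusted p = 0.38 without it.

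Whether these differences belong to 30 dpf was tested by the dependence of the ovary minus testis difference on age. No gene passed in edgeR (0 of 19292; 1952 genes, 10.1%, had an unadjusted p under 0.05, and the smallest adjusted p was 0.067), and DESeq2 called 89 of 13138. At 25 dpf, with 2 ovaries and 4 testes, 2552 genes were called (13.2%; 8.64% higher and 4.59% lower in ovaries), of which 2161 were among the 30 dpf calls (84.7% of the 25 dpf calls and 31.8% of the 30 dpf calls). The genes called higher at 30 dpf had a median of 0.81 at 25 dpf, and those called lower one of -0.80. Oocyte lists were already apart: the zona pellucida median was 4.83 at 30 dpf and 4.15 at 25 dpf, and the maternal median 3.79 and 2.83. ZAR1 had a log2 fold change of 4.73 at 30 dpf and 3.21 at 25 dpf. The cell cycle median was 1.00 at 30 dpf and 0.18 at 25 dpf, and that of mitochondrially encoded genes -0.67 and 0.02. For amh the values were -4.59 and 0.46, and for DMRT1 -2.60 and -0.59. These pairs are given side by side, since none of the interactions passed the adjusted threshold in the edgeR fit.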

How the data were processed

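Whole single gonads were sequenced after cDNA amplification (Discover-sc WTA kit and TruePrep library kit, Vazyme). The authors mapped reads to the zebrafish genome (GRCz11 in the submitters' processing notes) with HISAT2 2.0.5, sorted them with SAMtools 1.5, removed duplicates with Picard and counted reads per gene with HTSeq 0.9.1 in reverse-stranded mode. The kits are not stated to mark strand, so a gene and an antisense partner cannot be told apart. The deposited values are raw counts of 32520 genes in 12 gonads, with no other processing, and 29201 identifiers had a symbol in the name table. Column names gave the group but not the GEO sample.

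The counts were filtered with the default of edgeR 4.0.16 (filterByExpr), which kept 19292 genes, scaled by TMM and fitted in R 4.3.3 with 1 mean per sex and age over the 12 gonads (glmQLFit and glmQLFTest). CPM are scaled by TMM. DESeq2 1.42.0, other scalings and filters, the 30 dpf gonads alone, robust dispersion, the replicate number as a block and leaving out each 30 dpf gonad were tried as alternatives. In a gene with 3 counts or fewer in every gonad of a sex, the fitted log2 value depends on the prior count.

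Named genes were a fixed set of sex and germ cell genes, up to 6 called members per list with the smallest adjusted p, up to 3 called against the list's majority, the oocyte and body forms, and the 8 largest differences in each direction (called, with a symbol, a mean of 10 CPM or more in the higher sex, no overlap). The following were named after their values were seen: FN1, HORMAD1, HSD11B2, PCNA, PDGFRB, TDRD1, YBX1, acta2, hsd3b1, kdrl, mki67, nanog, nanos1, pou5f3, rnf17, zp3e, vtg3, TSSK6, and the second copies of CYP11A1, MCM6 and NR5A1. So were gfra1a, GFRA1, id4, zbtb16b, mfn1b, MFN2, OPA1, DNM1L, ADIPOQ and the INHBB copy ENSDARG00000103892. These last are left out of the counts and sign changes of named genes given below. The comparison and the gene lists were chosen with earlier results of these data known. Chromosomal positions of genes were not analysed here. A few genes of the lists are counted in them but not reported here.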

Additional observations from a re-analysis of the deposited data

How the results depend on the processing

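With 3 gonads against 3, the counts rested on single gonads. Leaving out one 30 dpf gonad gave 2679 to 3493 genes higher and 1985 to 3125 lower, the lowest without ovary 1 (1985) and ovary 2 (2027). With DESeq2, 4074 genes were higher and 3423 lower. Members called in any list were 370 of 820, and 273 to 357 with a gonad left out. The number of genes whose difference depended on age, 0 in edgeR, was 89 with DESeq2, 1 with no filter, 1 with at least 10 counts in every gonad, 1 with robust dispersion and 0 to 1 with a gonad left out, and it could not be computed from the 30 dpf gonads alone. Of 235 named genes tested, 208 were called, of which 0 changed direction in any alternative, 55 lost the call in at least 1, and 153 kept it in all.

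With the replicate number as a block, 3185 genes were higher and 2635 lower, and 332 list members were called. Correlations of the deviations of same-numbered ovaries and testes were 0.14, 0.0307 and 0.099, not all over 0.1, and those of different numbers -0.115 to 0.0356. Every ovary correlated best with the testis of its own number, while testis 2 correlated best with ovary 3 (0.0356). The deviations were taken from the mean of each sex, which ties these values together, so they cannot decide whether gonads were paired.

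Named genes that changed sign were not called with all gonads. With a 30 dpf gonad left out, log2 fold changes ran between -0.91 (without ovary 3) and 0.99 (without testis 1) for foxl2l, which was at 0.082 with the block and 0.081 without ovary 1. They ran between -0.39 and 0.14 for eif4e1c (0.045 without testis 2), between -0.46 and 0.082 for eif4eb (0.081 without ovary 1), and between -0.29 and 0.77 for npm1b, which was at -0.038 with upper-quartile factors and -0.17 by library size. EEF1A1 (ENSDARG00000039502) ran between -0.37 and 0.47, with -0.016 for upper-quartile factors and -0.14 by library size. FOXL2 (ENSDARG00000042180) ran between -5.75 without ovary 3 and 3.38 without testis 1, with -0.035 for upper-quartile factors and -0.15 by library size. The range was -0.25 to 3.71 for CYP19A1, -0.078 to 4.58 for ZAR1L, -0.77 to 0.038 for SOX9 (ENSDARG00000043923), -0.33 to 1.49 for acta2 and -1.48 to 0.21 for CYP11A1 (ENSDARG00000092696). The cause was not tested in any of these.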

Other observations

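Some genes that were abundant in single gonads were far lower in other gonads of the same sex, and these were picked after their values were seen. Tia1l, a relative of an RNA-binding protein of stress granules, had 433, 7.05 and 3.93 CPM in the ovaries, against 3, 175 and 181 CPM in the testes. C19H6orf62 had 1.61, 64 and 129.5 CPM in the ovaries, against 2, 129 and 95.8 CPM in the testes, with ovary 1 and testis 1 the lowest. GPS2, a subunit of a corepressor complex, had 58.5, 4.18 and 2.31 CPM in the ovaries, against 1, 36.8 and 26.4 CPM in the testes. The 2 copies of RRM2, a subunit of ribonucleotide reductase, ran opposite ways among the ovaries. The copy ENSDARG00000078069 had 1647, 905 and 61.2 CPM in the ovaries, against 142, 15.4 and 10.1 CPM in the testes, and the copy ENSDARG00000020711 had 32.5, 1164 and 1270.3 CPM in the ovaries, against 167, 424 and 292 CPM in the testes. Ovary 1 was thus the highest gonad for one copy and the lowest for the other. Gtsf1, a piRNA cofactor, was detectable in testis 3 alone, with 0, 0.783 and 0 CPM in the ovaries, against 0, 0.205 and 54.1 CPM in the testes. The class II gene mhc2daa was lowest in testis 2, with 163, 40.5 and 76 CPM in the ovaries, against 505, 9.03 and 215 CPM in the testes.

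Among all 19292 genes tested, with no cut on level, testis 2 had the most that stood over 4-fold above both other gonads of its sex, 240. Testis 1 had the most that stood over 4-fold below, 170. Both counts were taken on CPM + 1. The other gonads had 37 to 131 above and 38 to 145 below. Vwa10.2 was an extreme case, with 6.71, 6.27 and 2.77 CPM in the ovaries, against 0.8, 310.0 and 0.805 CPM in the testes. The oocyte gene 42sp43, known for storing transfer RNA in frog oocytes, had 4379, 4318 and 3162 CPM in the ovaries, against 8.4, 279 and 4.83 CPM in the testes. ELF3, an epithelial factor, had 4.02, 5.48 and 4.62 CPM in the ovaries, against 2, 107 and 1.81 CPM in the testes. The source of these counts was not tested.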
